A study of Mus musculus with 10 samples.

Results

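Adrenergic signalling in the heart was followed through 9 genes: the receptors Adrb1, Adra1a and Adra1b, the adenylyl cyclases Adcy5 and Adcy6, the phosphodiesterases Pde3a, Pde3b and Pde4b, and the receptor kinase Grk5. They were found by their symbols in a table of 23303 gene entries, and all 9 were present and above the minimum level for testing (a mean of at least 1 FPKM), as were 11651 entries in all. FPKM is the number of sequenced fragments of a gene scaled by transcript length and library size. It does not correct for differences in composition between libraries, so comparisons of levels between genes and between mice are approximate. The samples were left ventricles of male 129X1/SvJ mice, 5 with chronic kidney disease (CKD) and 5 labelled Sham, 1 library per sample, profiled to study how the heart changes in kidney failure (uremic cardiomyopathy). The labels give neither the operation that produced CKD nor the mice's age or the time after surgery, and no drug or transgene is named. The samples are taken as separate animals because the series design counts 5 mice in each group; it calls the controls normal, where the labels say Sham. Because the tissue is whole ventricle, fewer cells of a type and less RNA per cell cannot be told apart in any result below.

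Noradrenaline and adrenaline raise the rate and force of the heartbeat through beta1 receptors, which act through the stimulatory G protein on adenylyl cyclase, the enzyme that makes cyclic AMP (cAMP). cAMP activates protein kinase A, which phosphorylates calcium-handling and contractile proteins, and phosphodiesterases end the signal by breaking cAMP down. The alpha1 receptors act instead through the Gq protein and phospholipase C, and receptor kinases such as Grk5 phosphorylate occupied receptors and so dampen their signal. In failing hearts, loss of beta1 receptors is a well-known feature of this pathway.

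Summed FPKM per library was between 570509 and 605007. CKD 1 and Sham 1 stood apart from the other 8 libraries: their 10 most abundant genes took 14.8% and 15.3% of the summed FPKM, against 17.6% to 18.2% elsewhere. Between any 2 of the other 8 libraries, 27.0% to 31.4% of genes with low values in both (at most 0.2 FPKM) shared a single ratio within 0.004 on the log2 scale, as whole reads give, and by that ratio their depths lay between 0.908 and 1.15 times that of Sham 2. The share was 1.11% to 1.67% where 1 of the pair was CKD 1 or Sham 1, and 5.38% between those 2, so their relative depth could not be read. The absolute depth of every library is unknown. Because each group holds 1 of these libraries, results are also given without both where that changes a call.

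All 9 genes had lower mean levels in CKD than in Sham, and 3 fell past the threshold of the test across all genes: Adra1b by 37.5%, Pde3a by 25.2% and Adcy5 by 11.6%. None rose. The test was limma on log2(FPKM + 0.5) with Benjamini-Hochberg adjustment over the 11651 tested genes and a threshold of 0.05; by the same rule 2.12% of all tested genes were lower and 3.17% higher in CKD. The median change of the 9 genes was -0.36 on the log2 scale, against -0.00345 over all tested genes, of which 51.1% had a negative change. Of the 9, 6 had an unadjusted p under 0.05 and a negative change, which 9.03% of tested genes had. Because the 9 genes were chosen with earlier results of these data known, these comparisons with all tested genes do not test the set. Of the 3 calls, only that of Adra1b was kept when any 1 library was left out, and only that one without both CKD 1 and Sham 1.

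Promoter sequences are shown for Adra1b, whose call was the most stable, and for Adrb1, the main adrenergic receptor of heart muscle, from the RefSeq table of build GRCm38.p6. Of the 9 genes 5 had entries, at 9 start sites, and Adra1a, Adcy6, Pde3a and Pde3b had none. Each sequence is the 250 bases before the start site, read 5′ to 3′ along the gene's strand, and none of the 3 overlaps an annotated exon in GENCODE M21. Capitals mark matches to GGGCGG (the core of the GC box bound by Sp1) or to TGACG (one arm of the cAMP response element TGACGTCA), on either strand.
Adra1b, upstream start, chr11:43901238-43901487, minus strand: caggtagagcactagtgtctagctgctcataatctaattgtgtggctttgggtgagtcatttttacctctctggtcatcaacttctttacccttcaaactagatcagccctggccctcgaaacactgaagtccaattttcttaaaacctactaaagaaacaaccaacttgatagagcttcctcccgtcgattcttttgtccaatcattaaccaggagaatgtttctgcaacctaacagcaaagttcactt
Adra1b, downstream start, chr11:43836490-43836739, minus strand: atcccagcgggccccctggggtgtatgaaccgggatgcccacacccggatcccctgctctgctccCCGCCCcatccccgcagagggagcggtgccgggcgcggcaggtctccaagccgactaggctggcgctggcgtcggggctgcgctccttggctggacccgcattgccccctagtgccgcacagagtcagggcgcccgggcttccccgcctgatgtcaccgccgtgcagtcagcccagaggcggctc
Adrb1, chr19:56721867-56722116, plus strand: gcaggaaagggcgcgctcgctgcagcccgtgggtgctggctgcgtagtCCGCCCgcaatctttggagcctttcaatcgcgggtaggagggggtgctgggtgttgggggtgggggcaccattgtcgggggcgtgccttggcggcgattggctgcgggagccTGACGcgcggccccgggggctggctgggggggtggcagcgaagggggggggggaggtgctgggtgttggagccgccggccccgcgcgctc
The upstream Adra1b sequence has 41.6% G and C and 3 CpG dinucleotides, and the downstream one 72.8% and 22, against medians of 52.4% and 6 over 32841 promoter entries. Adrb1 (74.0%, 24 CpG) is also rich in G and C, as is the Adcy5 entry (78.0%, 32 CpG), which is not printed. The Adcy5 entry and the downstream Adra1b sequence lie within the RefSeq bounds of their genes, and the upstream Adra1b sequence partly overlaps them. Adcy5 holds 4 matches to GGGCGG, Adrb1 holds 1 and the downstream Adra1b sequence 1, where 32.7% of all entries hold at least 1. TGACG occurs in the Adrb1 sequence and in 1 of 4 Pde4b sequences, and in 17.8% of all entries, while the full TGACGTCA occurs in none of the 9 sequences and in 1.55% of all entries. The table gives 1 value per gene, so the share of Adra1b RNA from each start was not analysed here.

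The alpha1B receptor gene Adra1b had the largest change of the 9. Its levels were 10.0, 11.1, 6.40, 8.05 and 8.70 FPKM in CKD 1 to CKD 5 and 13.4, 12.8, 16.6, 14.4 and 14.2 FPKM in Sham 1 to Sham 5. Every CKD mouse lay below every Sham mouse, a separation in this direction that 3.18% of tested genes had; 4.1% had the reverse, with every CKD mouse above, which none of the 9 did. The means were 8.85 ± 1.81 and 14.3 ± 1.43 FPKM (SD, n = 5 each), a log2 change of -0.68 (SE 0.13, limma adjusted p = 0.00977). With 1 library left out the log2 change ranged from -0.76 to -0.57, and leaving out CKD 1 together with Sham 1 gave -0.75 (limma adjusted p = 0.0224). Adra1b lies on chromosome 11 from 43774605 to 43901250 (GRCm38), on the minus strand. Pde3a lies on chromosome 6 from 141249269 to 141506862 and Adcy5 on chromosome 16 from 35154494 to 35305743, both on the plus strand.

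The alpha1A receptor gene Adra1a stood at 5.78, 3.99, 5.26, 6.08 and 6.63 FPKM in CKD 1 to 5 and at 8.98, 8.33, 6.85, 8.19 and 4.99 FPKM in Sham 1 to 5. Sham 5 lay among the CKD mice, and the other 4 Sham mice were above all 5 CKD mice. The log2 difference was -0.39 (SE 0.16, 95% interval -0.73 to -0.05) and did not pass (limma adjusted p = 0.195). It passed without Sham 5, at -0.52 (limma adjusted p = 0.0430). Adra1d, the remaining alpha1 receptor gene, averaged 0.863 ± 0.20 FPKM in the CKD mice and 0.991 ± 0.319 in the Sham mice (SD, n = 5 each) and was below the level for testing. Summed over the 3 alpha1 receptor genes, the level was 12.4 to 16.4 FPKM in CKD and 20.2 to 24.9 in Sham. Adra1b made up 57.6 ± 7.00% of that sum in CKD against 62.9 ± 5.38% in Sham (SD, n = 5 each), ranges that overlapped.

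The beta1 receptor gene Adrb1 stood at 10.9, 7.16, 7.36, 9.16 and 7.19 FPKM in CKD 1 to 5 and at 12.5, 10.8, 9.29, 9.02 and 12.7 FPKM in Sham 1 to 5. CKD 1 and CKD 4 lay within the Sham range and the other 3 CKD mice below it. The log2 difference was -0.36 (SE 0.13, 95% interval -0.65 to -0.07), which did not pass (limma adjusted p = 0.146). It passed without CKD 1, at -0.46 (limma adjusted p = 0.0472), and in no fit that left out another single library. Adrb3, Adra2a, Adra2b and Adra2c had means between 0.00461 and 0.247 FPKM in each group and were not tested.

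**Figure D1:**
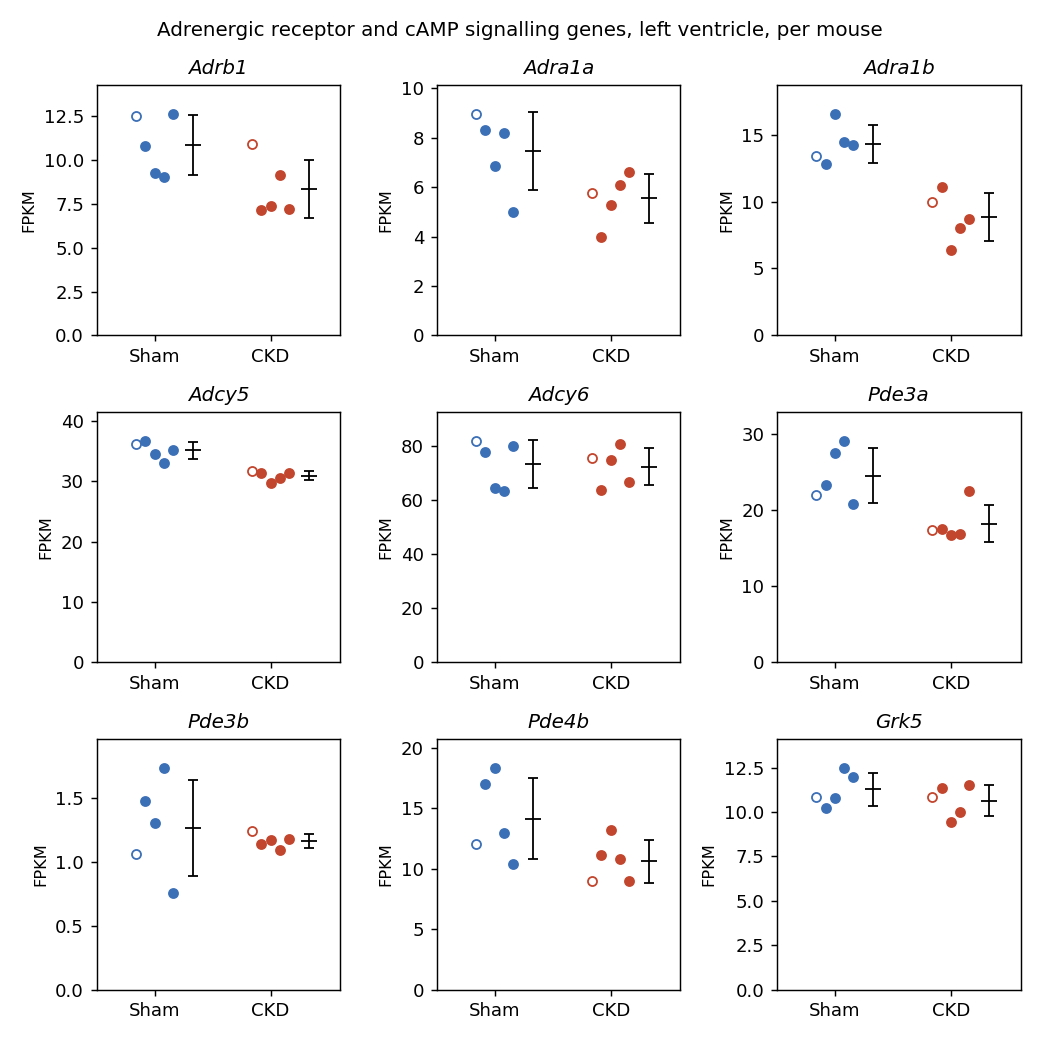
FPKM of the 9 genes in each mouse (points; 5 Sham in blue, 5 CKD in red; open points are Sham 1 and CKD 1), with the group mean and SD at the right of each group; every vertical axis starts at 0. The CKD and Sham points do not overlap for Adra1b (6.40 to 11.1 against 12.8 to 16.6 FPKM) and Adcy5 (29.7 to 31.7 against 33.0 to 36.7 FPKM), and overlap for the other 7 genes.

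Adcy5 and Adcy6 encode the main adenylyl cyclases of heart muscle, which calcium inhibits. Adcy5 was at 31.7, 31.3, 29.7, 30.6 and 31.4 FPKM in CKD 1 to 5 and at 36.1, 36.7, 34.5, 33.0 and 35.2 FPKM in Sham 1 to 5. The groups did not overlap, and the spread within each was the smallest among the 9 genes in both (coefficient of variation 2.62% in CKD and 4.12% in Sham). The log2 change was -0.18 (SE 0.05, limma adjusted p = 0.0484). Its size stayed between -0.20 and -0.16 when 1 library was left out, but the adjusted p was then above 0.05 in 9 of 10 fits (limma, up to 0.111; 0.0467 without Sham 4), and it was 0.0656 without both CKD 1 and Sham 1. The call was also lost when each library was scaled to the same summed FPKM (limma adjusted p = 0.0671), without a variance trend (0.0720) and with robust variances (0.0525).

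Adcy6, the most abundant of the 9 genes, was at 75.6, 63.6, 74.9, 80.7 and 66.8 FPKM in CKD 1 to 5 and at 81.8, 77.8, 64.4, 63.2 and 79.9 FPKM in Sham 1 to 5. Both groups spanned nearly the same range. The log2 difference was -0.02 (SE 0.09, 95% interval -0.22 to 0.18; limma adjusted p = 0.949), and its sign changed in 5 of the 10 fits without 1 library. An antisense gene shares exonic bases with Adcy6 in GENCODE M21, as another does with Pde3a, and the sources used here do not give whether counting used strand. Of the summed FPKM of the 10 adenylyl cyclase genes, Adcy6 made up 55.9 ± 2.62% in CKD against 55.3 ± 2.45% in Sham, and Adcy5 24.0 ± 1.61% and 26.6 ± 1.29% (SD, n = 5 each). That sum came to 129 ± 7.01 FPKM in CKD mice and 132 ± 10.5 FPKM in Sham mice.

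Pde3a encodes the cGMP-inhibited phosphodiesterase of heart muscle that inotropic drugs such as milrinone block. Its level was 17.3, 17.5, 16.7, 16.8 and 22.5 FPKM in CKD 1 to 5 and 21.9, 23.3, 27.5, 29.1 and 20.8 FPKM in Sham 1 to 5. Of the CKD mice 4 lay below the whole Sham range, close together, and CKD 5 lay inside it. The log2 change was -0.42 (SE 0.11, limma adjusted p = 0.0443). Without CKD 5 it was -0.50 (limma adjusted p = 0.0217), and without Sham 5 the adjusted p was 0.0299, while leaving out any other single library ended the call (limma adjusted p from 0.0510 to 0.107). The call was also lost without both CKD 1 and Sham 1 (log2 -0.44, limma adjusted p = 0.0761), without the filter on the mean (0.0651) and without a variance trend (0.0574).

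Pde4b, of the cAMP-specific PDE4 family that acts on cAMP near beta receptors, was at 8.98, 11.1, 13.2, 10.8 and 8.97 FPKM in CKD 1 to 5 and at 12.1, 17.0, 18.3, 12.9 and 10.4 FPKM in Sham 1 to 5. Sham 2 and Sham 3 stood above all other mice, and the remaining values of the 2 groups were interleaved. The log2 difference was -0.38 (SE 0.15, 95% interval -0.72 to -0.05; limma adjusted p = 0.191), and it passed in none of the fits tried. Pde3b, the PDE3 form best known from fat and liver, was the least abundant of the 9. It ranged from 1.10 to 1.24 FPKM in CKD and from 0.759 to 1.74 FPKM in Sham, so that all 5 CKD values lay inside the Sham range. Its log2 difference was -0.06 (SE 0.14, 95% interval -0.37 to 0.26; limma adjusted p = 0.885), a scale that understates changes so near the added 0.5 FPKM.

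Grk5 was at 10.8, 11.4, 9.44, 10.0 and 11.5 FPKM in CKD 1 to 5 and at 10.8, 10.2, 10.8, 12.5 and 12.0 FPKM in Sham 1 to 5. The groups overlapped over most of their range. The log2 difference was -0.08 (SE 0.07, limma adjusted p = 0.628), with a 95% interval from -0.24 to 0.08. Its relative Adrbk1, the gene of receptor kinase Grk2, averaged 26.1 ± 1.39 FPKM in the CKD mice and 26.6 ± 0.992 in the Sham mice (SD, n = 5 each; limma adjusted p = 0.863).

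**Figure D2:**
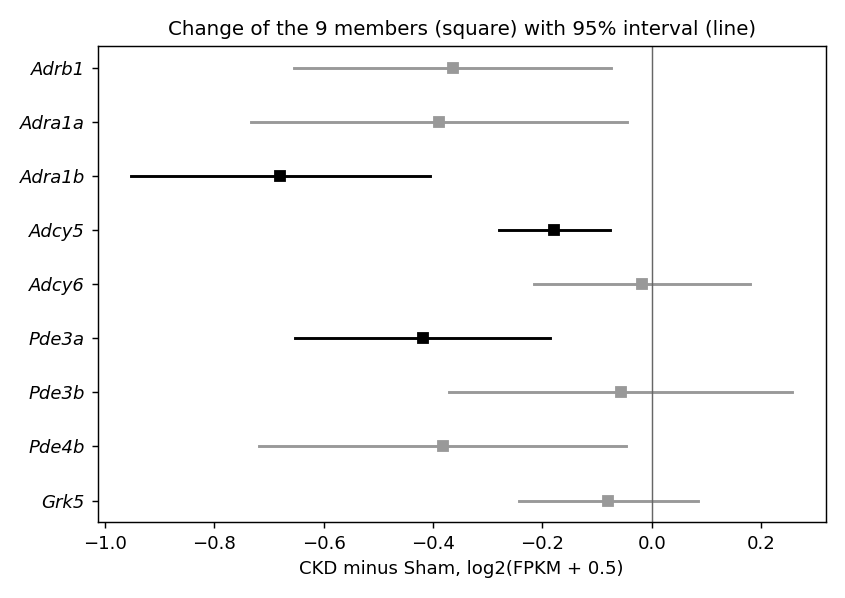
Difference between CKD and Sham on the log2(FPKM + 0.5) scale for each of the 9 genes (squares) with its 95% interval from limma (lines); black marks an adjusted p under 0.05 and grey the rest. All 9 squares lie below 0, from -0.68 for Adra1b to -0.02 for Adcy6, and the intervals of Adcy6, Pde3b and Grk5 include 0.

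In Sham ventricles the order of the FPKM levels was Adcy6 (73.4 ± 8.92), Adcy5 (35.1 ± 1.45), Pde3a (24.5 ± 3.58), Adra1b (14.3 ± 1.43), Pde4b (14.1 ± 3.38), Grk5 (11.3 ± 0.927), Adrb1 (10.9 ± 1.72), Adra1a (7.47 ± 1.59) and Pde3b (1.27 ± 0.376; SD, n = 5 each). The ranges of neighbours overlapped between Adra1b and Pde4b, Pde4b and Grk5, and Grk5 and Adrb1, and were apart for the other neighbours. In CKD the first 3 and the last 3 places were the same, and Grk5 (10.6 ± 0.893), Pde4b (10.6 ± 1.76) and Adra1b (8.85 ± 1.81) followed Pde3a, with overlapping ranges between each of these neighbours and between Adra1b and Adrb1 (8.36 ± 1.67; SD, n = 5 each). Adra1b thus stood in the fourth place in Sham and in the sixth in CKD. Among the 11651 tested genes the levels ran from the 2.71 percentile for Pde3b to the 90.8 percentile for Adcy6.

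No single mouse was low for all genes. Sham 5 had the lowest Sham value of 4 genes (Adra1a, Pde3a, Pde3b and Pde4b) and the highest of Adrb1. CKD 3 had the lowest CKD value of 4 genes (Adra1b, Adcy5, Pde3a and Grk5) and the highest of Pde4b. CKD 1 held the highest CKD value of Adrb1, Adcy5 and Pde3b.

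Whether related genes changed unequally was tested with 5 ratios within each mouse, by an exact two-sided permutation test over the 10 mice with Benjamini-Hochberg adjustment over the 5. None passed. Pde3b relative to Pde3a came nearest: the FPKM ratio was 0.0719, 0.0654, 0.0699, 0.0652 and 0.0525 in CKD 1 to 5 and 0.0485, 0.0633, 0.0475, 0.0597 and 0.0365 in Sham 1 to 5. CKD 5 lay within the Sham range and the other 4 CKD mice above it. The difference, taken like all 5 from log2(FPKM + 0.5) values, was 0.36 (SE 0.12, exact permutation p = 0.0238, adjusted p = 0.119). Adcy6 relative to Adcy5 was 2.34 ± 0.258 in CKD against 2.09 ± 0.191 in Sham (SD, n = 5 each), a log2 difference of 0.16 (SE 0.09, exact permutation p = 0.127, adjusted p = 0.278). Grk5 relative to Adrb1 was 1.31 ± 0.280 in CKD against 1.06 ± 0.211 in Sham (log2 difference 0.28, SE 0.18, exact permutation p = 0.167, adjusted p = 0.278).

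Adra1b relative to Adra1a was 1.67 ± 0.654 in CKD against 2.01 ± 0.596 in Sham (SD, n = 5 each; log2 difference -0.29, SE 0.27, exact permutation p = 0.262, adjusted p = 0.327). Thus the call of Adra1b and the lack of one for Adra1a do not show that the 2 receptor genes changed unequally. Pde4b relative to Pde3a was 0.596 ± 0.146 in CKD against 0.578 ± 0.118 in Sham (log2 difference 0.04, SE 0.20, exact permutation p = 0.857, adjusted p = 0.857).

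**Figure D3:**
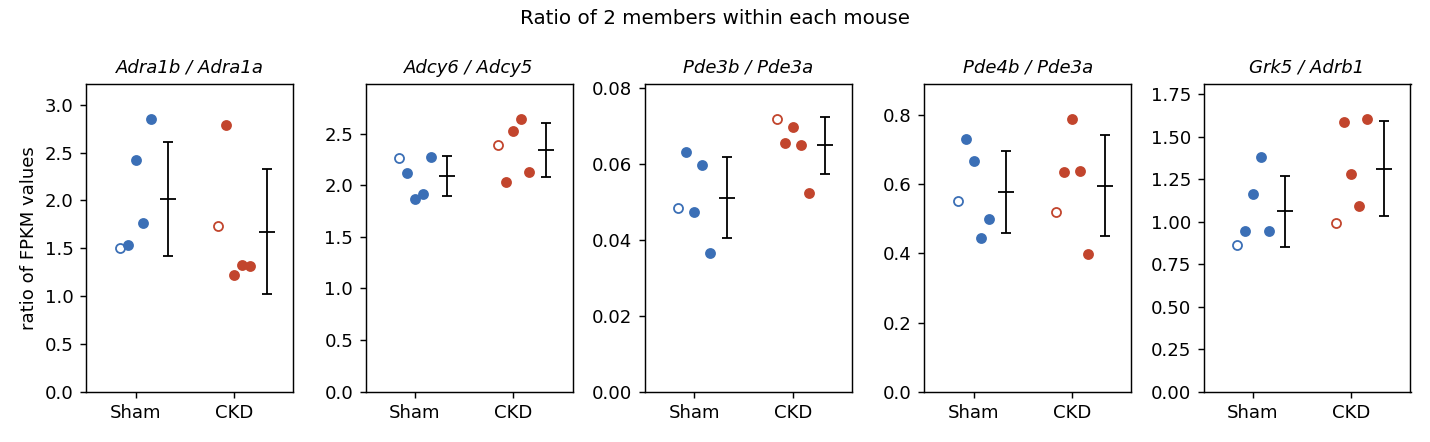
Ratio of the FPKM values of 2 genes within each mouse (points; 5 Sham in blue, 5 CKD in red; open points are Sham 1 and CKD 1), with the group mean and SD; vertical axes start at 0. The groups overlap in all 5 ratios, least for Pde3b over Pde3a (0.0525 to 0.0719 in CKD against 0.0365 to 0.0633 in Sham).

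For each gene that passed, tested genes were ranked by likeness of pattern over the 10 libraries. The measure was the root mean square difference of log2 deviations from each gene's own mean. Entries of several symbols and clone, model and small RNA names were left out, and 10868 genes were compared. For Adra1b the nearest were Grip2 (0.16) and Asb4 (0.17), against a median of 0.42 over all genes compared. For Adcy5 they were Tmem143 (0.039) and Ybx1 (0.040, median 0.17), and for Pde3a Abca4 (0.10) and Ppp1r9a (0.11, median 0.30). As the smallest of all, these differences are bound to lie below the median. Grip2, Asb4, Tmem143 and Ybx1 were themselves called lower in CKD (limma adjusted p from 0.0283 to 0.0487). Abca4 and Ppp1r9a were not called (limma adjusted p = 0.261 and 0.163).

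The rest of the pathway was described with 13 lists of genes arranged from receptor to target, which held 172 genes besides the 9; of these 132 were tested. Of the 132, 7 rose, 5 fell and the others did not pass (by limma 5.29% of all tested genes were called in either direction), and their median log2 change was -0.0052. Among receptors that raise or lower cAMP, 2 of 8 tested fell and none rose. Chrm2, the M2 muscarinic receptor through which the vagus nerve lowers cAMP, fell from 44.4 ± 4.29 to 35.0 ± 2.45 FPKM (SD, n = 5 each; log2 -0.34, SE 0.07, limma adjusted p = 0.0212); its call was lost without CKD 2 or Sham 2. Ramp1, a subunit of the receptor for the vasodilator peptide CGRP, fell from 1.83 ± 0.417 to 0.934 ± 0.135 FPKM (log2 -0.69, SE 0.13, limma adjusted p = 0.0114), and its call was kept when any 1 library was left out. Calcrl, the calcitonin-receptor-like gene of the same list, did not fall with Ramp1. It averaged 9.08 ± 1.18 FPKM in the CKD mice and 7.88 ± 0.596 in the Sham mice (log2 0.19, limma adjusted p = 0.290). S1pr1, the most abundant of this list, averaged 47.2 ± 5.06 FPKM in the CKD mice and 46.4 ± 15.5 in the Sham mice.

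Among G protein subunits 2 of 18 tested rose and none fell. Gnao1, an inhibitory-class alpha subunit, rose from 10.00 ± 1.09 to 13.8 ± 1.90 FPKM (log2 0.45, SE 0.10, limma adjusted p = 0.0232), a call lost without CKD 3, Sham 3 or Sham 4. Gnai2, an inhibitory alpha subunit, rose from 120 ± 6.52 to 138 ± 6.72 FPKM (log2 0.20, SE 0.05, limma adjusted p = 0.0417), and its call was lost in 8 of the 10 fits without 1 library, all but those without CKD 4 or Sham 5, and under upper-quartile scaling (0.0570) and quantile normalization (0.0515). The Gnai2 call was also lost without both CKD 1 and Sham 1 (limma adjusted p = 0.0844) and without a variance trend (0.0751). Gnas, the stimulatory alpha subunit that couples beta receptors to adenylyl cyclase, averaged 684 ± 21.9 FPKM in the CKD mice and 683 ± 37.9 in the Sham mice (SD, n = 5 each). Of the 6 tested genes of the adenylyl cyclase list other than Adcy5 and Adcy6, Adcy7 rose, from 3.87 ± 0.208 to 5.29 ± 0.539 FPKM (log2 0.40, SE 0.08, limma adjusted p = 0.0131), and none fell. The 6 include Cap1 and Cap2, which are not among the 10 adenylyl cyclase genes summed above. Adcy7, an isoform abundant in blood cells, was called whichever library was left out.

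Of 13 tested genes of the phosphodiesterase list besides the 3 described, 2 rose and 1 fell. Pde1c, a calcium-activated enzyme that breaks down cAMP and cGMP, fell from 14.3 ± 0.589 to 10.4 ± 1.20 FPKM (SD, n = 5 each; log2 -0.45, SE 0.08, limma adjusted p = 0.00664). Pde8a, a cAMP-specific enzyme of high affinity, rose from 7.88 ± 0.632 to 10.6 ± 1.15 FPKM (log2 0.41, SE 0.08, limma adjusted p = 0.0161). Both calls were kept when any 1 library was left out. Pde4c rose from 3.64 ± 0.154 to 4.54 ± 0.373 FPKM (log2 0.28, limma adjusted p = 0.0444), and its call was kept only without CKD 3 among the fits without 1 library and was lost under each of 3 other scalings (limma adjusted p from 0.0535 to 0.0548). The Pde4c call was also lost without both CKD 1 and Sham 1 (limma adjusted p = 0.0681) and without the filter on the mean (0.0704). The most abundant entry, Pde4dip, an anchoring protein rather than an enzyme, averaged 407 ± 53.9 FPKM in the CKD mice and 418 ± 51.1 in the Sham mice.

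Arrb2, an arrestin that binds phosphorylated receptors, rose from 7.08 ± 0.190 to 9.03 ± 1.02 FPKM (SD, n = 5 each; log2 0.32, SE 0.07, limma adjusted p = 0.0289). It was the only 1 of 12 tested genes besides Grk5 among receptor kinases, arrestins and RGS proteins that rose. The call was lost without CKD 2, Sham 2, Sham 3 or Sham 4, and without both CKD 1 and Sham 1 (limma adjusted p = 0.0564). Rgs5, the most abundant of that list, averaged 105 ± 9.54 FPKM in the CKD mice and 101 ± 11.3 in the Sham mice. Of 8 other cAMP effectors, Popdc3, a cAMP-binding membrane protein of muscle, rose from 16.4 ± 0.639 to 19.5 ± 1.64 FPKM (log2 0.24, SE 0.06, limma adjusted p = 0.0470). Its call was kept only without CKD 5 among the fits without 1 library, and was lost without both CKD 1 and Sham 1 (0.0740) and when libraries were scaled to the same summed FPKM (0.0743). Its relative Popdc2 averaged 298 ± 20.5 FPKM in the CKD mice and 306 ± 12.7 in the Sham mice.

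Downstream of cAMP, with all libraries, no call was made among 6 protein kinase A subunits and inhibitors, 12 anchoring proteins, 10 protein kinase A substrates of the cardiomyocyte or 16 genes of cAMP-responsive transcription, nor among 13 genes of alpha1 receptor signalling. The most abundant of each list were Prkar1a, a regulatory subunit (273 ± 48.3 FPKM in CKD, 240 ± 28.9 in Sham), the anchoring protein Cmya5 (83.0 ± 17.5 and 108 ± 17.2), the cardiac troponin I gene Tnni3 (6729 ± 903 and 7665 ± 1012), the nuclear receptor Nr4a1 (87.7 ± 29.4 and 128 ± 94.1) and Arhgef12 (33.0 ± 1.87 and 33.1 ± 2.91; SD, n = 5 each). Tnni3 was lowest in CKD 1 and Sham 1 of their groups; its log2 difference of -0.19 did not pass with all libraries (limma adjusted p = 0.397) and passed without both (log2 -0.18, limma adjusted p = 0.0365). Without both, the inhibitor gene Pkia was also called lower (log2 -0.29, limma adjusted p = 0.0394), and the substrate genes Mybpc3 (log2 0.19, 0.0212) and Hspb6 (log2 0.31, 0.0430) were called higher. Hspb6 was called higher without CKD 5 (limma adjusted p = 0.0259) or Sham 1 (0.0356) as well, and without Sham 5 the anchoring protein genes Akap6 (log2 -0.35, 0.0420) and Akap11 (log2 -0.41, 0.0153) were called lower. With all libraries the limma adjusted p of these 5 genes was between 0.0555 and 0.162. In the upstream lists, Gnai1 was called lower without CKD 1 (limma adjusted p = 0.0373) and Calcrl higher without CKD 4 (0.0465).

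Among genes of catecholamine synthesis, uptake and breakdown 2 of 9 tested fell and none rose. Maob, a monoamine oxidase of the mitochondrial outer membrane, fell from 39.6 ± 2.37 to 30.0 ± 1.85 FPKM (SD, n = 5 each; log2 -0.39, SE 0.06, limma adjusted p = 0.00375). Dbh, the enzyme that makes noradrenaline from dopamine, fell from 1.98 ± 0.166 to 1.02 ± 0.331 FPKM (log2 -0.73, SE 0.14, limma adjusted p = 0.0127). Both calls were kept when any 1 library was left out. Beside Dbh, the nerve markers Th and Snap25 had means under 0.1 FPKM, and no other tested neuron or Schwann cell marker passed.

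**Figure D4:**
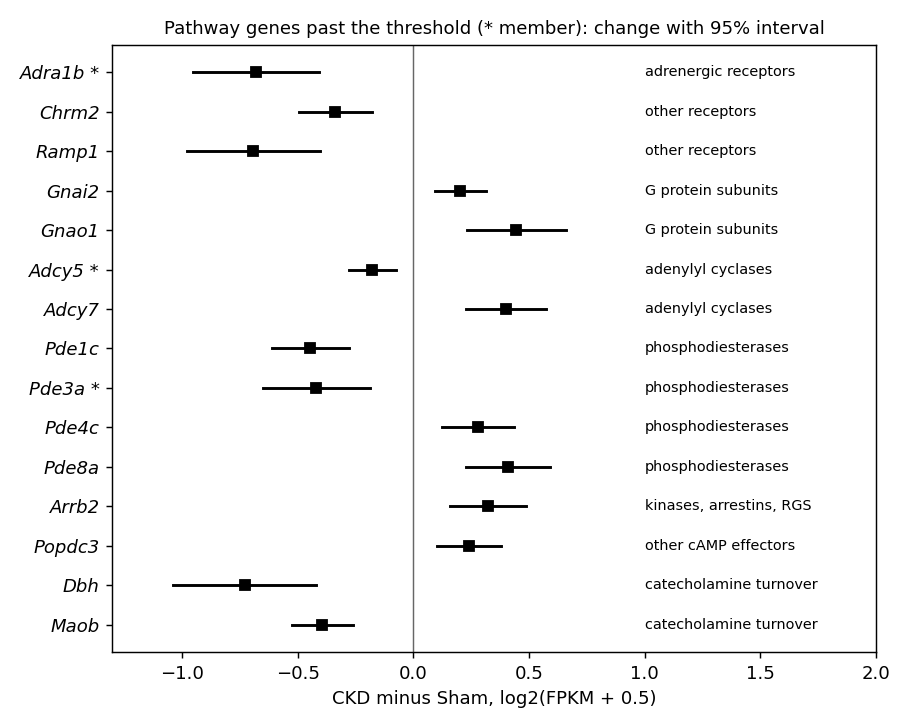
Difference between CKD and Sham (squares, log2 scale) with 95% intervals from limma (lines) for the 15 pathway genes with an adjusted p under 0.05, with the list of each at the right and a star for Adra1b, Adcy5 and Pde3a. Of the 15, 8 lie below 0 and 7 above it, from -0.73 for Dbh to 0.45 for Gnao1.

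Many marker genes of fibroblasts and macrophages were higher in CKD, and few markers of the other cell types passed. Of 12 fibroblast markers 7 rose, with a summed level of 705 to 797 FPKM in Sham and 849 to 1040 in CKD, and of 11 tested macrophage markers 6 rose (284 to 341 FPKM in Sham and 400 to 582 in CKD, summed over 12). Of 14 cardiomyocyte markers 1 rose and none fell (75995 to 90285 FPKM in Sham and 73880 to 92412 in CKD), and their median log2 change was 0.03. None of 12 endothelial markers passed (1748 to 2000 FPKM in Sham and 1779 to 2203 in CKD), and 1 of 12 smooth muscle and pericyte markers rose (1423 to 1717 and 1644 to 1841). Of 12 neuron and Schwann cell markers 4 could be tested, and only Dbh passed, falling (15.9 to 19.7 and 15.3 to 20.3 summed over all 12). The median log2 change of the 4, Dbh among them, was 0.01. Of 10 adipocyte markers 3 could be tested and none passed (45.3 to 50.7 and 41.8 to 58.3, summed over all 10), and 2 of the 10, Lep and Ucp1, had means under 0.1 FPKM. The part of these shifts in the changes of the receptor, cyclase, phosphodiesterase and arrestin genes was not tested.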

How the data were processed

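RNA of 10 left ventricles (5 CKD, 5 Sham) was sequenced as single reads from TruSeq mRNA libraries, per the labels' protocols. The authors deposited 1 table of FPKM values for every gene in each library. The submitters' processing notes list Cuffdiff 2.1.1, Cufflinks 2.1.1 and STAR 2.4.0f1, and the builds mm10 and hg19, without saying what each was used for. Strand use, the annotation and the treatment of shared reads are not given in the sources used here.

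Columns were matched to samples by the library number in their names, and mice are numbered within each group only as names. Values were analysed as log2(FPKM + 0.5) without further scaling, for entries with a mean of at least 1 FPKM. CKD was compared with Sham with limma 3.58.1 in R 4.3.3 (two-sided, moderated variances following a trend with the mean, Benjamini-Hochberg over all tested genes, threshold 0.05), checked on simulated data. Ratios of 2 genes are printed as plain FPKM ratios and were compared as differences of log2(FPKM + 0.5) by exact permutation, where the smallest possible two-sided p is 0.00794. Fold changes are on the log2(FPKM + 0.5) scale and understate those of low genes.

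The 9 genes and the lists were chosen with earlier results of these data known. In each list, the genes past the threshold (at most 4) and the most abundant gene are named, and for each of the 9 that passed, the 2 nearest genes by pattern. Adra1d, Adrb3, Adra2a, Adra2b, Adra2c, Adrbk1, Cap1, Cap2, Pkia, Mybpc3, Hspb6, Akap6, Akap11, Gnai1 and Calcrl were named after their values were seen, as were the marker genes with means under 0.1 FPKM. Symbols of all list genes were in the table, and some list genes are not reported here. Positions and promoters are from RefSeq, GRCm38.p6, the assembly that mm10 denotes, and exons from GENCODE M21. Alternatives were other pseudocounts, filters, scalings, variance models, thresholds and tests, and leaving out libraries; a term for CKD 1 and Sham 1 was added after seeing the data.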

Additional observations from a re-analysis of the deposited data

Results flagged for a closer look

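Within groups of 5, a sample is named here where its gap to the nearest other, divided by the group's range, exceeded Dixon's 95% critical value of 0.71. Of 74 gene and group combinations 3 met this, where chance gives about 1 in 20, or 3.7. Pde3a in CKD 5 was high, at 22.5 FPKM against 17.5 in the next CKD mouse. Pde8a in Sham 1 was low, at 6.79 FPKM against 7.87 in the next Sham mouse. Tnni3 in CKD 1 was low, at 5149 FPKM against 6845 in the next CKD mouse.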

How the results depend on the processing

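Of 215 alternative values for the 9 genes, 178 kept their direction and side of the threshold, 27 lost a call, 2 gained one and 8 changed sign. These values include those of the exact permutation test, in which Adra1b, Adcy5 and Pde3a lost their calls. They also include the main fit read at a threshold of 0.1. The number of the 9 called lower (3) was 1 without a variance trend, 1 without both CKD 1 and Sham 1, and 1 to 3 with 1 library left out (1 without CKD 2, CKD 3, CKD 4, Sham 1, Sham 2 or Sham 3). Over all tested genes, 369 higher and 247 lower became 201 to 384 and 131 to 290 with 1 library left out. They became 573 and 479 with a term for CKD 1 and Sham 1, an alternative chosen after seeing the data, and 633 and 454 at a threshold of 0.1; array weights gave 400 lower. Of the other pathway genes, 7 higher became 2 to 6 with 1 library left out, 12 with that term and 12 at a threshold of 0.1, and 5 lower became 3 with a mean of at least 5 FPKM and 9 with the term. The exact permutation test across genes called 0 in each of these counts; its adjusted p cannot go below 0.109 here, so it says nothing about stability, and 2275 genes had an unadjusted limma p under 0.05. Signs changed mostly for log2 differences near 0, and also for Nr4a1, at -0.12 with all libraries. Adcy6 was 0.045 with array weights, 0.0058 without both CKD 1 and Sham 1, and -0.069 to 0.027 with 1 library left out. S1pr1 was -0.018 with array weights, Gnas -0.0095 with upper-quartile scaling and -0.00071 without both libraries, and Arhgef12 0.032 and 0.054 with array weights and without both. With 1 library left out, Pde3b ranged from -0.17 to 0.035, S1pr1 from -0.12 to 0.22, Gnas from -0.014 to 0.026, Pde4dip from -0.11 to 0.036, Nr4a1 from -0.74 to 0.22, Arhgef12 from -0.037 to 0.032 and the log2 ratio of Pde4b to Pde3a from -0.070 to 0.17. Apart from settings that remove libraries, the cause was not tested. No paired analysis was possible because the labels give the mice no numbers shared between the groups. Read depth is unknown, so counting error could not be set beside low values such as those of Pde3b.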
